A study of Bos taurus with 15 samples.

Results

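The 85 genes annotated as small nucleolar RNA (snoRNA) among the 10832 genes of the filtered count table were followed gene by gene in bovine blastocysts. They were chosen by their NCBI gene type among the genes that had passed the filter on low counts, and every one of them was tested. By symbol, 16 were H/ACA snoRNA genes (SNORA), 39 were C/D snoRNA genes (SNORD) and 1 was a small Cajal body RNA gene (SCARNA9). The remaining 29 had no symbol in the part of the study's gene table at hand and are given by their RefSeq locus name (LOC and the gene identifier). That part of the table was ordered by the study's own evidence for a difference between FoEV and Co embryos, so whether a member had a symbol, and with it a class, was not independent of that comparison.

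The embryos were produced by fertilization in vitro and were blastocysts at day 7 by the sample labels. All of them were cultured in vitro, without oviductal extracellular vesicles (Co), with freshly isolated vesicles (FeEV) or with vesicles that had been frozen and thawed (FoEV). The oviductal extracellular vesicles (oEVs) came from cows in the postovulatory stage, and per the study the fresh and the frozen oEVs came from the same oviducts. Each library was made from 1 ng of total RNA of 1 pool of 8 to 14 embryos, and there were 5 libraries per treatment, chosen by the study for RNA quality and concentration from the 6 Co, 7 FeEV and 8 FoEV pools collected. Replicates were separate pools, and p-values therefore measured the spread between pools. In such pools, a lower number of cells of a type and less RNA per cell cannot be told apart.

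snoRNAs are short stable RNAs of the nucleolus that work within protein particles. C/D snoRNAs bind fibrillarin, NOP56, NOP58 and SNU13 and guide the methylation of riboses in ribosomal RNA, whereas H/ACA snoRNAs bind dyskerin (DKC1), NHP2, NOP10 and GAR1 and guide the conversion of uridine to pseudouridine. A few of them, among them the U3, U8 and U13 RNAs and the SNORA73 family, act in cleavage or other steps of ribosomal RNA maturation, and small Cajal body RNAs guide the modification of spliceosomal RNAs. Most vertebrate snoRNAs are cut out of the introns of other genes, so that a snoRNA and the spliced RNA of the gene around it come from the same transcript. In the bovine embryo, functional nucleoli form with the major activation of the embryonic genome, well before the blastocyst stage.

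The libraries held 2136713 to 4058887 counted reads, and each FoEV library held more counts than each Co library. The labelled stage was checked against marker genes. All 8 trophectoderm markers and all 4 inner cell mass markers listed passed the filter on low counts, and the blood marker HBB was at 0 in all libraries. The summed level of the trophectoderm markers was 6261 to 8133 counts per 1000000 counted reads (CPM) in Co, 6618 to 10120 in FeEV and 7980 to 12020 in FoEV, and the part of these levels in the results below was not tested. The 3 hypoblast markers that passed summed to 503 to 639 CPM in FoEV and to 515 to 780 CPM in Co. Oviduct epithelium markers summed to 11.5 to 24.6 CPM in FoEV and to 15.3 to 25.9 CPM in Co. Cumulus and granulosa markers summed to 22.7 to 46.6 CPM in FoEV and to 23.8 to 38.3 CPM in Co. Blood markers summed to at most 0.884 CPM in FoEV and at most 6.94 CPM in Co.

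The snoRNA genes were counted sparsely. A member held between 181 and 8699 reads over all 15 libraries, with a median of 465, and 1 member had a library without a read. Together, the 85 genes took 0.0701 to 0.151% of the counts of Co libraries, 0.0722 to 0.156% of FeEV libraries and 0.134 to 0.340% of FoEV libraries. All levels below are CPM scaled by TMM (trimmed mean of M values) factors, which are not corrected for gene length, so levels were compared between libraries and not between genes.

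The 85 genes varied strongly between pools of the same treatment. The median coefficient of variation was 54.3% over the 5 Co libraries, against 16.6% over all filtered genes. Within Co it was 67.7% for C/D genes, 35.9% for H/ACA genes and 48.7% for genes without a symbol. The lowest value belonged to SNORA63, an H/ACA snoRNA also known as E3, with 4.30% in Co, and the C/D gene SNORD33 had 93.0%. SNORA63 was less even in the other treatments, at 38.2% in FeEV and 17.6% in FoEV.

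Many members were high or low together from library to library. For each library, the log2 level of each member was set against its Co mean, and the median over the 85 genes was taken. In Co, this median was 0.61 in replicate 1, −0.49 in replicate 2, −0.55 in replicate 3, −0.12 in replicate 4 and 0.46 in replicate 5. In FeEV, it was −0.59 in replicate 1, 0.58 in replicate 2, −0.11 in replicate 3, −0.37 in replicate 4 and 0.55 in replicate 5. In FoEV, it was 0.06 in replicate 1, 0.24 in replicate 2, 0.60 in replicate 3, 1.57 in replicate 4 and 1.42 in replicate 5.

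FoEV replicates 4 and 5 thus stood apart from the other 13 libraries, and the other 3 FoEV libraries lay within the range of Co. In 43 of the 85 genes, FoEV replicates 4 and 5 were the 2 highest of all 15 libraries, among them 29 of the 39 C/D genes and 4 of the 16 H/ACA genes. FoEV replicate 1 differed by class, with a median of 0.80 over H/ACA genes, −0.12 over C/D genes and −0.32 over genes without a symbol. Of the members, 67 were above every Co library in FoEV replicate 4 and 66 in FoEV replicate 5, against 17, 13 and 26 in FoEV replicates 1, 2 and 3. Ribosomal RNA made up 28.2% of the counts in FoEV replicate 4 and 22.5% in FoEV replicate 5, and 15.9 to 20.7% in the other 3 FoEV libraries, against 15.5 to 28.0% in Co. The TMM factor was 0.891 in FoEV replicate 4 and 0.971 in FoEV replicate 5, against 0.884 to 1.09 in Co. The part of these values in the results was not tested, and the main counts below are also given without FoEV replicates 4 and 5.

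**Figure D1:**
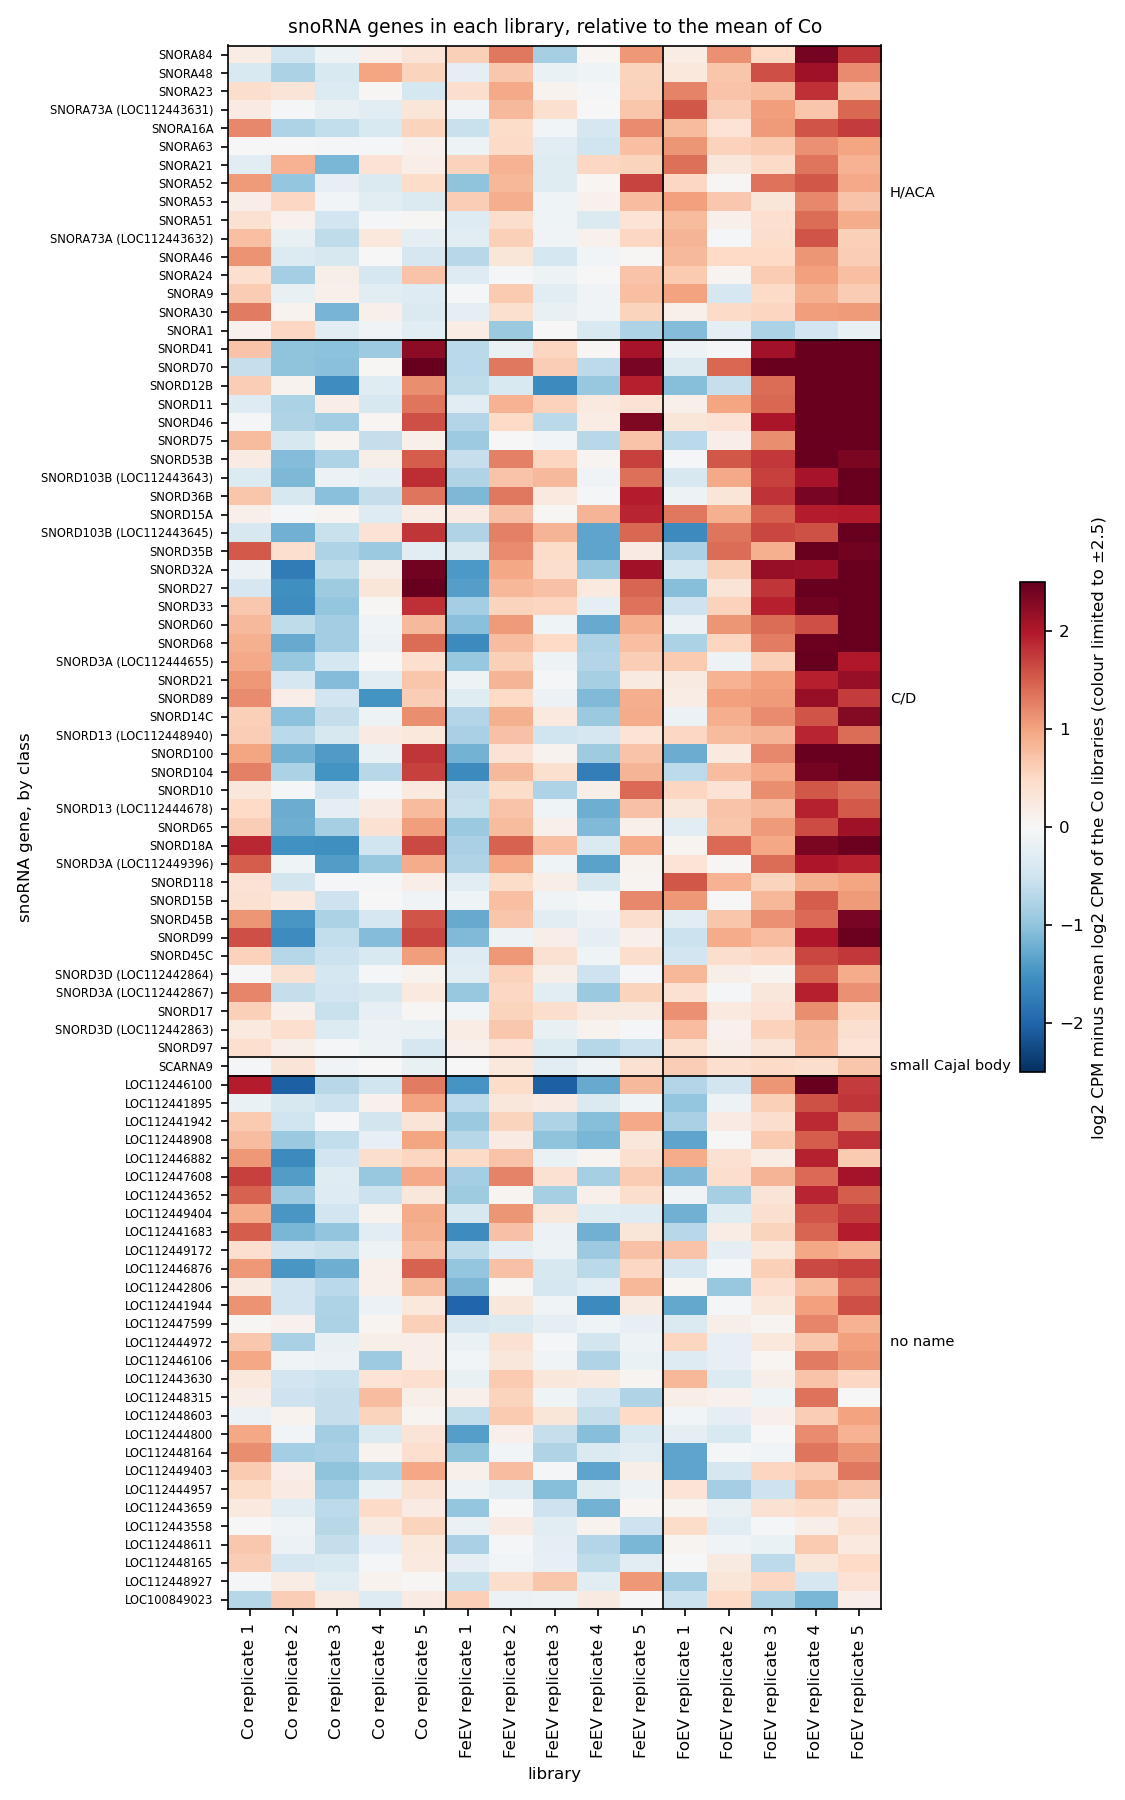
Each row is 1 of the 85 snoRNA genes, grouped by class (genes without a symbol under no name) and ordered by the log2 fold change of FoEV vs. Co, and each column is 1 library. Colour gives log2 CPM minus the mean log2 CPM of the 5 Co libraries, limited to 2.5 in either direction. The columns of FoEV replicates 4 and 5 are the darkest red, with medians of 1.57 and 1.42, and Co replicates 1 and 5 and FeEV replicates 2 and 5 are redder than the other libraries of their treatment.

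The first comparison asked how embryos cultured with frozen oEVs differed from control embryos. In FoEV treatment vs. Co, no snoRNA gene passed an adjusted p of 0.05 in edgeR's quasi-likelihood test, in which 0.00923% of all genes did. The smallest adjusted p was 0.0578. An unadjusted p under 0.05 was found for 34 members (background 15.1%), 33 of them higher and 1 lower in FoEV (background 8.18% higher and 6.88% lower). Under 0.001 were 5 members (background 0.831%), namely SNORA73A (LOC112443631), SNORD118, SNORA63, SNORD15A and SNORA23, all higher in FoEV. The median log2 fold change over the members was 0.85, against 0.01 over all genes. Without FoEV replicates 4 and 5, 10 members had an unadjusted p under 0.05 (background 10.4%), 9 higher and 1 lower, and the median was 0.33. None had an adjusted p under 0.05 in this edgeR fit (background 0%), and the smallest adjusted p was 0.227.

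Other tests and single libraries moved these counts. At an adjusted p under 0.05, the likelihood ratio test with a robust dispersion, which the study used, called 21 members (background 2.87%), namely 15 C/D and 6 H/ACA genes. DESeq2 called 5 (background 1.27%), while its filtering left 51 members without an adjusted p. The 5 were SNORA73A (LOC112443631), SNORA63, SNORD118, SNORD15A and SNORD15B, the last of which is named after its values were seen. The number with an unadjusted p under 0.05 was 21 without Co replicate 2 (background 12.8%), 21 without Co replicate 3 (background 13.0%) and 22 without FoEV replicate 4 (background 11.9%). The number with an adjusted p under 0.05 was 2 without FeEV replicate 2 (background 0.0462%), 3 without FeEV replicate 5 (background 0.0646%), 4 without FoEV replicate 2 (background 0.535%) and 1 without FoEV replicate 3 (background 0.129%).

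The filter on low counts bears on all counts over members. A comparison of both deposited tables showed that a gene was kept where at least 5 libraries reached about 4.72 CPM, which is not the rule stated in the study's methods. Of the 85 members, 22 reached this only with the help of FoEV libraries. The other 63 reached it in Co and FeEV libraries alone. Among these, 61 were higher in FoEV than in Co (background 52.3%), the median log2 fold change was 0.83 and 27 had an unadjusted p under 0.05 (background 15.1%). Without FoEV replicates 4 and 5, 46 of the 63 were higher, where 5436 of all 10832 genes were. The median of the 63 was then 0.37, and 9 had an unadjusted p under 0.05 (background 10.4%). These counts are given as a description.

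In 7 members, all 5 FoEV libraries were above all 5 Co libraries (background 1.26%), and in none were all FoEV libraries below (background 1.35%). They were the H/ACA genes SNORA73A (LOC112443631), SNORA63 and SNORA23, the C/D genes SNORD118, SNORD15A and SNORD10, and SCARNA9. SNORD10 is named here after its values were seen, and its mean was 10.8 CPM in Co and 23.1 CPM in FoEV. It had a log2 fold change of 1.09 with all libraries and of 0.72 without FoEV replicates 4 and 5.

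Among the H/ACA genes, 15 of 16 were higher in FoEV than in Co, where 52.3% of all genes were, and 13 had an unadjusted p under 0.05 (background 15.1%), 12 of them higher (background 8.18%). The exception was SNORA1. The median log2 fold change was 0.84, and it was 0.58 without FoEV replicates 4 and 5. In that fit, 15 of 16 were again higher, where 5436 of all 10832 genes were. An unadjusted p under 0.05 was found there for 6 (background 10.4%). A symbol was at hand mainly for genes near the top of the study's ranking of this comparison. The counts and medians of the class were therefore partly fixed by the naming. They were also partly fixed by the filter on low counts, which some of the 16, among them SNORA84 and SNORA48, passed only with the FoEV libraries. The SNORA73 family, whose RNA is needed for the maturation of the small subunit ribosomal RNA, had 3 genes within SNHG3, a non-coding host gene. Since their sequences are alike, the counting could have split reads between them, and the values of each are uncertain to that extent.

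SNORA73A (LOC112443631) was at 25.5, 21.3, 19.4, 18.1 and 27.1 CPM in Co replicates 1 to 5. In FeEV it was at 20.6, 39.0, 29.1, 21.9 and 36.0 CPM, and in FoEV at 65.8, 33.8, 46.3, 36.1 and 60.5 CPM. The lowest FoEV library was above the highest Co library, FoEV replicate 1 was the highest of all, and FeEV overlapped both. The log2 fold change of FoEV vs. Co was 1.13 with an SE of 0.21, or 2.19-fold, with an unadjusted p of 2.83e-05 and an adjusted p of 0.0578. It stayed between 0.99 and 1.24 when each library was left out, and was 1.12 without FoEV replicates 4 and 5. Over the alternatives, the adjusted p ranged from 6.58e-10 in the unfiltered table to 0.227 without FoEV replicates 4 and 5.

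The other SNORA73A gene (LOC112443632) was at 50.0, 25.6, 18.7, 35.3 and 25.0 CPM in Co, at 23.8, 44.2, 27.5, 31.4 and 42.2 CPM in FeEV and at 53.3, 28.3, 40.0, 88.5 and 44.4 CPM in FoEV. The treatments overlapped, and the log2 fold change was 0.71 with an SE of 0.31 and an adjusted p of 0.297. LOC112443630, which has no symbol in the table and which the study places in the same family, had means of 7.18 CPM in Co, 8.20 in FeEV and 9.50 in FoEV and a log2 fold change of 0.42 with an SE of 0.27. Of the 3 genes in SNHG3, LOC112443631 was therefore the one whose FoEV libraries did not overlap Co. A difference between the 3 genes was not tested.

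SNORA63 was the most even member in Co, at 44.1, 43.9, 42.6, 42.5 and 47.2 CPM. It was at 40.2, 61.3, 36.3, 31.0 and 74.9 CPM in FeEV and at 94.9, 66.1, 70.0, 98.5 and 87.8 CPM in FoEV. All 5 FoEV libraries were above Co, and FeEV replicate 5 was above 2 of them. FoEV differed from Co by a log2 fold change of 0.92 with an SE of 0.19 and an adjusted p of 0.0757.

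SNORA23 was at 3.28 to 6.56 CPM in Co, 4.55 to 9.66 CPM in FeEV and 8.07 to 18.4 CPM in FoEV. Its log2 fold change of FoEV vs. Co was 1.16 with an SE of 0.29 and an unadjusted p of 5.14e-04, and it was 0.96 without FoEV replicates 4 and 5. SNORA53 had a mean of 5.60 CPM in Co, 8.02 in FeEV and 10.1 in FoEV, and its treatments overlapped. SNORA84, which passed the filter on low counts only with the FoEV libraries, had means of 2.22, 3.68 and 6.88 CPM, and FoEV was 3.02-fold above Co, with a log2 fold change of 0.76 without FoEV replicates 4 and 5.

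Other H/ACA genes with an unadjusted p under 0.05 in FoEV vs. Co included SNORA51, SNORA48, SNORA16A and SNORA46. SNORA51, which lies within NOP56, had a log2 fold change of 0.79 with an SE of 0.23. SNORA48, which also passed the filter only with the FoEV libraries, had one of 1.28 with an SE of 0.39, and in SNORA16A, which lies within SNHG12, it was 1.01 with an SE of 0.45. SNORA46 was at 7.42, 7.10, 9.63 and 6.98 CPM in Co replicates 2 to 5 but at 21.5 CPM in Co replicate 1, above all FoEV libraries, which lay between 13.6 and 21.0 CPM. Its log2 fold change was 0.61 with all libraries and 1.05 without Co replicate 1.

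SNORA1 was the H/ACA gene that was lower in FoEV. It was at 9.85, 13.2, 7.42, 8.43 and 7.39 CPM in Co, at 10.4, 4.46, 9.07, 6.83 and 5.03 CPM in FeEV and at 3.94, 7.57, 4.96, 6.34 and 7.91 CPM in FoEV. The treatments overlapped, since FoEV replicates 2 and 5 were above the 2 lowest Co libraries. Its log2 fold change was −0.60 with an SE of 0.27, an unadjusted p of 0.0368 and an adjusted p of 0.295, and it was −0.77 without FoEV replicates 4 and 5. It was the 1 member with an unadjusted p under 0.05 and a lower level in FoEV.

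**Figure D2:**
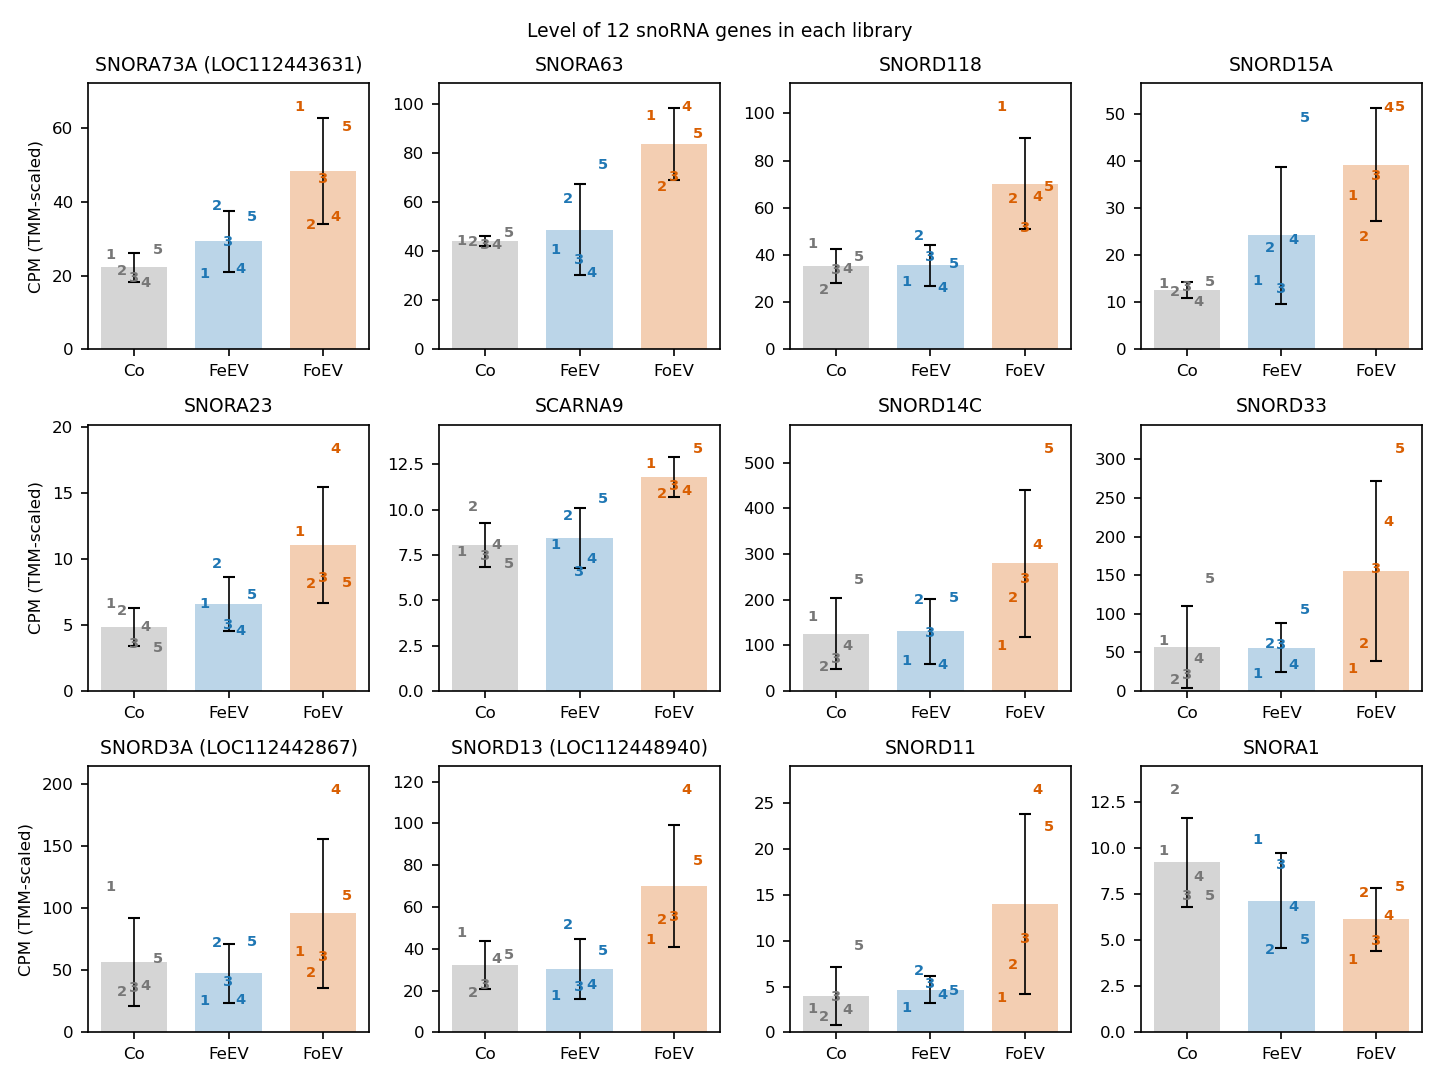
Each panel shows the level of 1 snoRNA gene in TMM-scaled CPM on an axis from 0, with the replicate number of each library as its point, the mean as a bar and the SD as an error bar (n = 5 per treatment). In the first 6 panels all FoEV libraries lie above all Co libraries, whereas in SNORD14C, SNORD33, SNORD3A, SNORD13 and SNORD11 the treatments overlap and FoEV replicates 4 and 5 are the highest FoEV libraries. The mean of SNORA1 is lower in FoEV.

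Among the C/D genes, all 39 were higher in FoEV than in Co, where 52.3% of all genes were, and 20 had an unadjusted p under 0.05 (background 15.1%). The median log2 fold change was 1.18, with a range from 0.39 to 2.12. Without FoEV replicates 4 and 5, 36 of 39 were higher, where 5436 of all 10832 genes were. In that fit, 3 of the 39 had an unadjusted p under 0.05 (background 10.4%) and the median was 0.49. C/D genes also had the widest spread within Co. Since a symbol was at hand mainly for genes near the top of the study's ranking of this comparison, these values describe the named genes alone. Some of the 39, among them SNORD11, SNORD41 and SNORD12B, passed the filter on low counts only with the FoEV libraries. Their higher level in FoEV, and with it the counts and the median of the class, was partly fixed by the filter.

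Of the C/D RNAs that act in the maturation of ribosomal RNA, SNORD118 had the smallest p. It is the U8 RNA, needed for the maturation of the large subunit ribosomal RNAs. It was at 44.9, 25.0, 33.5, 34.1 and 39.0 CPM in Co, at 28.6, 47.9, 39.1, 26.0 and 36.3 CPM in FeEV and at 103, 63.6, 51.3, 64.8 and 69.0 CPM in FoEV. All FoEV libraries were above all Co and all FeEV libraries, and the highest was FoEV replicate 1. The log2 fold change of FoEV vs. Co was 1.00 with an SE of 0.19, or 2.00-fold, with an unadjusted p of 4.32e-05 and an adjusted p of 0.0578. The value was 1.03 without FoEV replicates 4 and 5, and the adjusted p ranged from 7.49e-10 in the unfiltered table to 0.227 in that fit.

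The U3 RNA acts in the first cleavages of the precursor that release the small subunit ribosomal RNA, and it is encoded by several near-identical copies whose reads the counting could have split. The copy with the most counts, SNORD3A (LOC112442867), was at 117, 32.7, 35.8, 37.7 and 59.5 CPM in Co, at 25.6, 72.0, 40.7, 26.0 and 73.2 CPM in FeEV and at 65.1, 48.2, 60.9, 195 and 110 CPM in FoEV. Its log2 fold change was 0.75 with an SE of 0.49, and it was 0.03 without FoEV replicates 4 and 5. The other 4 copies, which fall outside the rule for named genes and are named after their values were seen, had log2 fold changes of 1.34 and 1.02 (SNORD3A, LOC112444655 and LOC112449396) and of 0.55 and 0.77 (SNORD3D, LOC112442863 and LOC112442864). LOC112449396 passed the filter only with the FoEV libraries.

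SNORD13, the U13 RNA, which guides an acetylation of the small subunit ribosomal RNA, was present as 2 genes that may share reads. LOC112448940 was at 18.9 to 47.4 CPM in Co, 17.3 to 51.3 CPM in FeEV and 44.0, 53.7, 55.4, 116 and 82.1 CPM in FoEV. Its FoEV libraries overlapped Co by FoEV replicate 1, and the log2 fold change was 1.12 with an SE of 0.35, falling to 0.65 without FoEV replicates 4 and 5. The other SNORD13 gene (LOC112444678) had means of 15.1 CPM in Co and 31.5 CPM in FoEV, and its treatments overlapped. Relative to the Co mean, its log2 level was 0.79 in Co replicate 5, above 0.29 and 0.72 in FoEV replicates 1 and 2. It was highest in FoEV replicates 4 and 5, at 1.93 and 1.54.

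SNORD14C, a gene of the U14 RNA, which acts in the processing of small subunit ribosomal RNA, lies within the chaperone gene HSPA8. It was at 162, 52.3, 71.0, 99.1 and 243 CPM in Co, at 65.0, 200, 128, 56.5 and 205 CPM in FeEV and at 97.7, 203, 245, 320 and 531 CPM in FoEV. Co replicate 5 was above FoEV replicates 1 and 2 and close to FoEV replicate 3, and the log2 fold change of 1.16 with an SE of 0.54 had an unadjusted p of 0.0525.

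Among the guides of ribose methylation, SNORD15A, within the ribosomal protein gene RPS3, was at 13.9, 12.2, 13.2, 10.0 and 14.4 CPM in Co. It was at 14.6, 21.5, 12.8, 23.2 and 49.2 CPM in FeEV and at 32.7, 24.0, 36.9, 51.4 and 51.5 CPM in FoEV. The FoEV libraries were above Co without overlap, while FeEV replicate 5 reached the level of the 2 highest FoEV libraries. The log2 fold change of FoEV vs. Co was 1.62 with an SE of 0.33, or 3.06-fold, with an unadjusted p of 1.93e-04 and an adjusted p of 0.0757. SNORD15B, the neighbouring C/D gene in RPS3, had means of 19.1, 25.7 and 37.5 CPM in Co, FeEV and FoEV and a log2 fold change of 0.96.

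SNORD33, within RPL13A, was at 64.9, 13.5, 20.3, 41.3 and 145 CPM in Co, at 22.1, 60.2, 59.1, 34.2 and 105 CPM in FeEV and at 28.0, 60.5, 158, 219 and 314 CPM in FoEV. Co replicate 5 was above 2 of the FoEV libraries. Its log2 fold change was 1.47, but with an SE of 0.73 its unadjusted p was 0.0669, and it was 0.53 without FoEV replicates 4 and 5. SNORD11, within NOP58, was at 1.69 to 9.44 CPM in Co and at 3.71, 7.32, 10.2, 26.4 and 22.4 CPM in FoEV, with a log2 fold change of 1.80 and an SE of 0.53. It passed the filter only with the FoEV libraries, and the value was 0.82 without FoEV replicates 4 and 5.

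At the ends of the class, named after their values were seen, SNORD41 had the largest log2 fold change, 2.12, which was 0.48 without FoEV replicates 4 and 5. SNORD12B had 1.82 and 0.08, and SNORD100 had 1.12 and −0.14. SNORD41 and SNORD12B passed the filter only with the FoEV libraries, so that a higher level in FoEV was in part fixed by their presence in the table. SNORD97 had the smallest, 0.39 and 0.26. SNORD17 was the third C/D gene, after SNORD15A and SNORD118, with an unadjusted p under 0.05 without FoEV replicates 4 and 5, at a log2 fold change of 0.61.

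**Figure D3:**
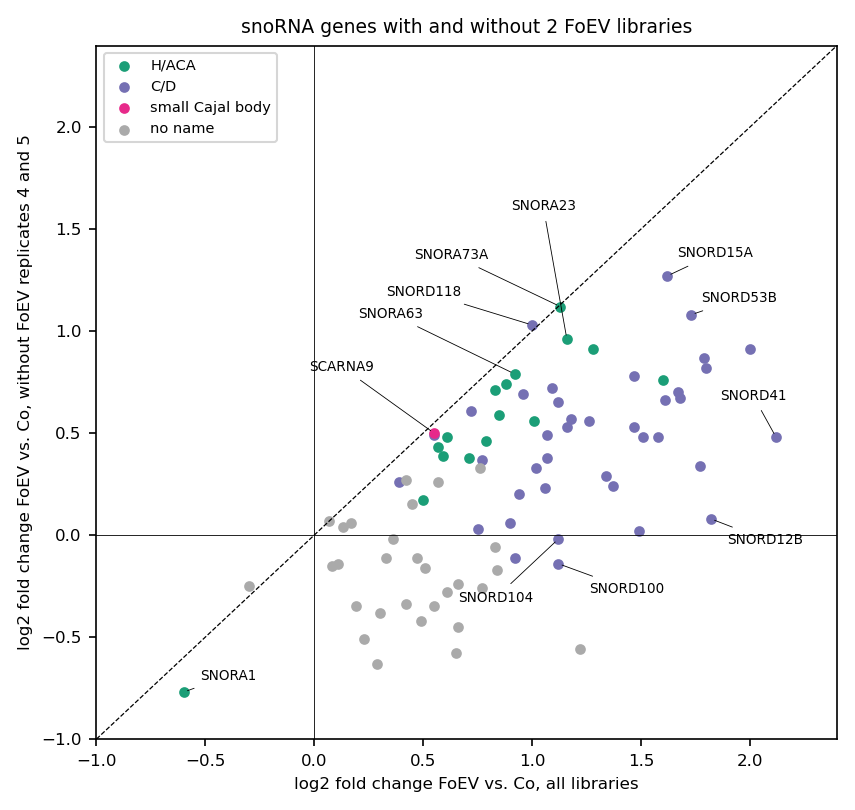
Each point is 1 of the 85 snoRNA genes, with the log2 fold change of FoEV vs. Co from all 15 libraries on the horizontal axis and from the fit without FoEV replicates 4 and 5 on the vertical axis. The dashed line marks equal values. SNORA73A (LOC112443631), SNORD118 and SCARNA9 lie close to it, at 1.13 and 1.12, 1.00 and 1.03, and 0.55 and 0.50, whereas SNORD12B and SNORD100 lie near 0 on the vertical axis.

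SCARNA9, the small Cajal body RNA gene, guides modifications of the spliceosomal U2 RNA. It was at 7.66, 10.1, 7.42, 8.03 and 6.98 CPM in Co, at 8.05, 9.66, 6.57, 7.29 and 10.6 CPM in FeEV and at 12.5, 10.9, 11.3, 11.0 and 13.4 CPM in FoEV. All FoEV libraries were above all Co and FeEV libraries, by a narrow margin. FoEV differed from Co by 0.55 on the log2 scale, with an SE of 0.19, an unadjusted p of 0.00759 and an adjusted p of 0.180.

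Of the 29 members without a symbol, 28 were higher in FoEV than in Co (background 52.3%), the median of their log2 fold changes was 0.45, and none had an unadjusted p under 0.05 (background 15.1%). A symbol was at hand mainly for genes near the top of the study's ranking of this comparison. The lack of such a p was therefore partly fixed by the naming. Some of the 29, among them LOC112444800, passed the filter on low counts only with the FoEV libraries. Their higher level in FoEV was partly fixed by the filter. Without FoEV replicates 4 and 5, 7 of the 29 were higher, where 5436 of all 10832 genes were, and the median of the 29 was −0.17. The 4 with the highest mean level were LOC112441683, LOC100849023, LOC112444972 and LOC112448165. LOC112441683, which lies within HSPA8 like SNORD14C, was at 99.2, 15.2, 17.1, 28.1 and 63.6 CPM in Co and at 21.1, 38.9, 51.0, 95.5 and 135 CPM in FoEV. Its log2 fold change was 0.61 with all libraries and −0.28 without FoEV replicates 4 and 5. LOC100849023 was the second member that was lower in FoEV, with means of 18.8 CPM in Co, 19.6 in FeEV and 15.1 in FoEV and a log2 fold change of −0.30 with an SE of 0.30. LOC112444972 and LOC112448165 had log2 fold changes of 0.45 and 0.08.

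The genes around the snoRNA genes gave a readout that did not enter the choice of members. By position in the assembly ARS-UCD2.0, a later one than that of the counts and used here for neighbourhood only and without regard to strand, 73 of the 85 members lay within another gene. For 64 of them the containing gene was in the filtered table, which gave 64 pairs with 44 containing genes, 35 protein-coding and 9 long non-coding. Ribosomal protein genes made up 13 of the 44, and 16 held more than 1 member.

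In FoEV treatment vs. Co, the containing genes had a median log2 fold change of 0.06, with a range from −0.28 to 0.96, and 24 were higher and 20 lower. An unadjusted p under 0.05 was found for 11 of them (background 15.1%), 7 higher (background 8.18%), and an adjusted p under 0.05 for 0. The member had the larger log2 fold change in 61 of the 64 pairs, and in 41 of the 64 without FoEV replicates 4 and 5. In 16 of the 64 pairs the member had passed the filter only with the FoEV libraries. A larger value of the member was partly fixed by the filter in these pairs. The ratio of member to containing gene was compared between FoEV and Co with an exact permutation test over the 252 assignments of 5 libraries against 5. An exact p under 0.05 was found in 14 of 64 pairs, each with the higher ratio in FoEV, without adjustment for the number of pairs. A share over other pairs of genes is not given. In 2 of the 14, those of SNORD11 and SNORA84, the member had passed the filter only with the FoEV libraries.

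In 4 pairs the ratio did not overlap between FoEV and Co, at the smallest exact p this design allows, 0.00794. This p was not adjusted for the number of pairs, and no share over other pairs of genes is given beside the count. The 4 members were also among those whose own level did not overlap between FoEV and Co, so the ratios are not a separate result. The log2 ratio was higher in FoEV by 1.30 for SNORA73A (LOC112443631) in SNHG3, by 1.13 for SNORA63 in EIF4A2, by 1.46 for SNORD15A in RPS3 and by 0.98 for SNORA23 in STRAP. SNHG3 itself had means of 32.1 CPM in Co, 24.8 in FeEV and 28.7 in FoEV, and a log2 fold change of −0.16 with an SE of 0.19. EIF4A2, a translation initiation factor, had a log2 fold change of −0.23 with an SE of 0.10, and RPS3, a small subunit ribosomal protein, had one of 0.07 with an SE of 0.09.

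The pair with the largest change of a containing gene was SNORD104 in the non-coding gene LOC101902037, both named after their values were seen. LOC101902037 had means of 8.08 CPM in Co and 15.9 CPM in FoEV and a log2 fold change of 0.96, with an unadjusted p of 0.00140 and an adjusted p of 0.126. SNORD104 had a log2 fold change of 1.12 with all libraries and −0.02 without FoEV replicates 4 and 5. SNORA1 was among the 3 members with a lower log2 fold change than their containing gene.

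**Figure D4:**
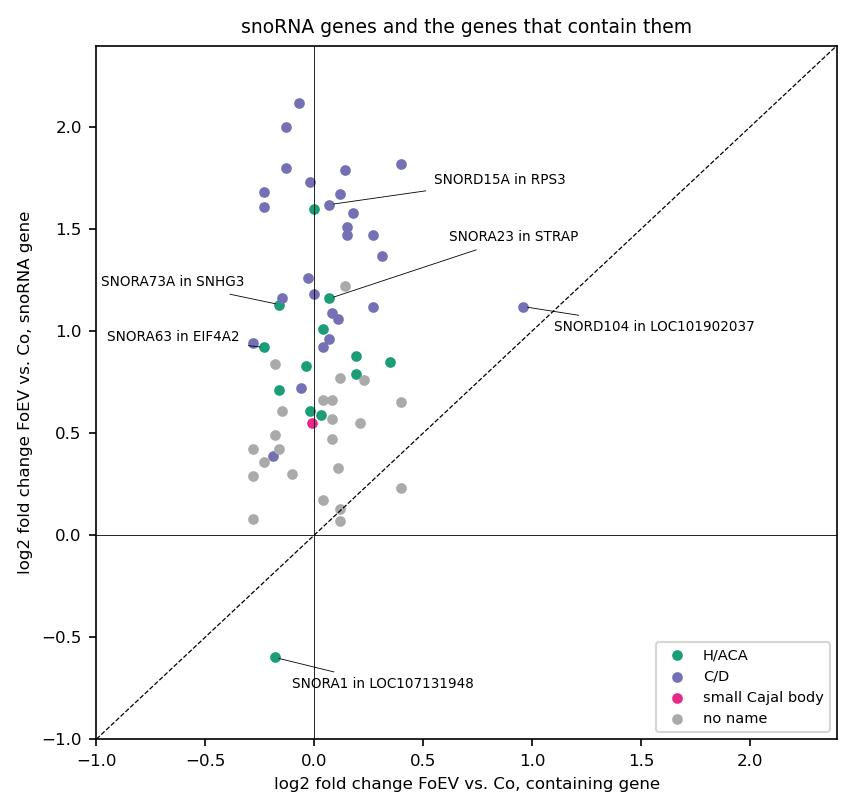
Each point is 1 of the 64 pairs, with the log2 fold change of FoEV vs. Co of the gene that contains the snoRNA gene on the horizontal axis and that of the snoRNA gene on the vertical axis. The dashed line marks equal values. Most containing genes lie near 0, with a median of 0.06, and 61 of the 64 snoRNA genes lie above the line. In 16 of the pairs the snoRNA gene had passed the filter only with the FoEV libraries.

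The protein genes of the snoRNA particles were also in the same fit. All 21 listed genes were tested. In FoEV treatment vs. Co, an unadjusted p under 0.05 was found for 2 of them (background 15.1%), both higher (background 8.18%), so that the share of these genes was near or below that of all genes. NHP2, a core protein of H/ACA particles, had means of 28.1 CPM in Co and 37.5 CPM in FoEV and a log2 fold change of 0.41 with an SE of 0.14 and an adjusted p of 0.179. NOP56, a core protein of C/D particles, had a log2 fold change of 0.19 with an SE of 0.09. The methyltransferase fibrillarin (FBL) had 0.15 with an SE of 0.12, and the pseudouridine synthase dyskerin (DKC1) 0.20 with an SE of 0.10. Both core lists had medians below those of the snoRNA classes, at 0.15 for the 4 C/D proteins and 0.19 for the 4 H/ACA proteins. In FoEV vs. FeEV 1 of the 21, NOP10, had an unadjusted p under 0.05 (background 8.52%), at a log2 fold change of 0.31 with an SE of 0.14, and in FeEV vs. Co 0 of the 21 had one in edgeR. No adjusted p of the 21 was under 0.05.

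The second comparison set frozen against fresh oEVs. In FoEV vs. FeEV treatment, 82 members were higher in FoEV (background 51.8%), and the log2 fold change had a median of 0.90, against 0.01 over all genes. An unadjusted p under 0.05 was found for 31 (background 8.52%), all higher in FoEV (background 4.83%), an unadjusted p under 0.001 for 2 (background 0.166%), and an adjusted p under 0.05 for 0 (background 0%, smallest 0.447). Of the 63 members that passed the filter in Co and FeEV libraries alone, 60 were higher, with a median of 0.77. Of these, 22 had an unadjusted p under 0.05 (background 8.52%). The 22 members that passed only with FoEV libraries had a median of 1.28, and 9 had such a p. Their higher level in FoEV was partly fixed by the filter. Without FoEV replicates 4 and 5, 72 of the 85 members were higher, where 5392 of all 10832 genes were, and the median over the members was 0.34. In that fit, 5 members had an unadjusted p under 0.05 (background 6.98%) and 0 an adjusted p under 0.05 in edgeR. The 5 were SNORD118, SNORA73A (LOC112443631), SNORA63, SNORA46 and SNORD13 (LOC112448940). The count was 17 without FeEV replicate 1 (background 7.73%), 19 without FeEV replicate 4 (background 6.85%), 15 without FoEV replicate 4 (background 7.14%) and 19 without FoEV replicate 5 (background 9.42%). It was 51 without FoEV replicate 1 (background 6.49%) and 50 without FoEV replicate 2 (background 11.4%). The likelihood ratio test with a robust dispersion called 6 members (background 0.286%) and DESeq2 called 1, SNORD118 (background 0.0277%), at an adjusted p under 0.05.

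All FoEV libraries were above all FeEV libraries in 3 members (background 0.757%), SNORD118, SNORA46 and SCARNA9, and below them in 0 (background 0.748%). SNORD118 had a log2 fold change of 0.98 with an SE of 0.19 and an unadjusted p of 4.91e-05, and SNORA63 had one of 0.76 with an SE of 0.19 and an unadjusted p of 7.21e-04. SNORA46 was at 5.66 to 11.9 CPM in FeEV and at 13.6 to 21.0 CPM in FoEV, with a log2 fold change of 0.90 and an SE of 0.28. For SNORA73A (LOC112443631) the value was 0.73 with an SE of 0.20. The other members among the 8 with the smallest p were SNORA51 at 1.70-fold, SNORD13 (LOC112448940) at 2.30-fold, SNORA48 at 2.29-fold and SNORD11 at 2.96-fold above FeEV. The member was above its containing gene in 63 of the 64 pairs, and in 48 without FoEV replicates 4 and 5. In 16 of the 64 pairs the member had passed the filter only with the FoEV libraries. This comparison and FoEV vs. Co share the FoEV libraries, so the values of both are given side by side and are not independent.

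The third comparison set fresh oEVs against no oEVs. In FeEV treatment vs. Co, 40 of the members were higher (background 51.0%) and 45 were lower, and the median of their log2 fold changes was −0.05. An unadjusted p under 0.05 was found for 2 (background 4.15%), 1 higher (background 1.83%) and 1 lower (background 2.32%), and an unadjusted p under 0.001 for 0 (background 0.0923%). All FeEV libraries were above all Co libraries in 0 members (background 0.535%) and below in 0 (background 0.415%). In edgeR's quasi-likelihood test the adjusted p was 1.00 for all members (0% of all genes under 0.05). SNORD15A was higher in FeEV, at a log2 fold change of 0.94 with an SE of 0.34 and an unadjusted p of 0.0153, and it was 0.48 without FeEV replicate 5. LOC112448611 was lower, at −0.68 with an SE of 0.32 and an unadjusted p of 0.0466, with means of 5.98 CPM in Co and 3.73 CPM in FeEV. The count of 2 became 1 without Co replicate 1 (background 4.06%) or Co replicate 5 (background 3.95%) and 4 without Co replicate 3 (background 3.66%).

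In order of p, the next members were SNORA53 at 0.51 with an SE of 0.27, SNORA73A (LOC112443631) at 0.40 with an SE of 0.22, LOC112444800 at −0.76 with an SE of 0.43, LOC112443659 at −0.51 with an SE of 0.30, SNORA23 at 0.44 with an SE of 0.30 and SNORA84 at 0.75 with an SE of 0.53. None of them had an unadjusted p under 0.05. SNORD118 had means of 35.3 CPM in Co and 35.6 CPM in FeEV, with a log2 fold change of 0.02 and an SE of 0.20, and SNORA63 had means of 44.1 and 48.7 CPM, with 0.16 and an SE of 0.20. In the pairs with containing genes, the member had the larger log2 fold change in 32 of 64, and the ratio had an exact p under 0.05 in 1, SNORA73A (LOC112443631) in SNHG3, where it was higher in FeEV by 0.74 on the log2 scale.

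**Figure D5:**
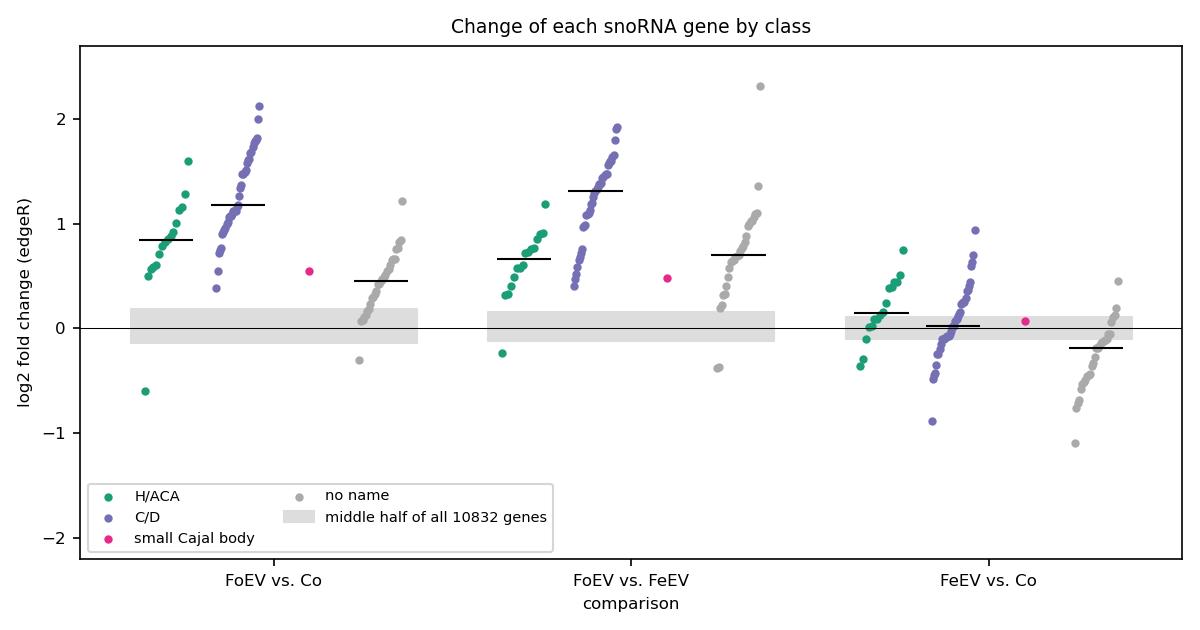
Points are the log2 fold changes of single snoRNA genes, sorted within each class, in the 3 comparisons, with a black line at the median of each class and a grey band from the lower to the upper quartile of all 10832 genes. Medians were 0.84 for H/ACA and 1.18 for C/D genes in FoEV vs. Co, 0.66 and 1.31 in FoEV vs. FeEV, and 0.15 and 0.02 in FeEV vs. Co. Classes were known for members near the top of the study's ranking of FoEV vs. Co. The higher medians of the named classes in that comparison are therefore partly fixed by the naming. Some members passed the filter on low counts only with the FoEV libraries, so that their higher level in FoEV is partly fixed by the filter.

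Genes outside the filtered table were looked at as well. The table of all genes listed 634 snoRNA genes, of which 208 had no read in any library. Of those outside the filtered table, 127 had a mean of at least 3 counts. In a fit on the unfiltered table, 92 of these 127 were higher in FoEV than in Co, the median of their log2 fold changes was 0.44, and 30 had an unadjusted p under 0.05 (background 10.3%). In FeEV vs. Co, 62 of them were higher, with a median of −0.02, and 2 had an unadjusted p under 0.05 (background 4.46%). Both backgrounds are over all 25470 genes with a read, and the share of all genes that were higher is not given. The cut was on raw counts, and each FoEV library held more counts than each Co library, so it could favour genes high in FoEV. Reads on snoRNA genes outside the filtered table were most numerous in FoEV replicates 4 and 5, at 1719 and 2073. This fit was not repeated without these 2 libraries.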

How the data were processed

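The authors sequenced ribosome-depleted, strand-selected libraries (Ovation SOLO kit) of bovine blastocyst pools and deposited counts of reads per gene without normalization, for all genes and for the genes they kept after filtering, mapped to ARS-UCD1.2. The methods name QuasR Qcount for the counting, while the submitters' processing notes list Trim Galore 0.4.3.1, HISAT2 2.1.0 and featureCounts 1.6.3. Reads were longer than most C/D snoRNAs. The labels give day 7 for the blastocysts, whereas the methods give a length of culture, at 1 day more than this number. The treatment of each of the 15 libraries was taken from its title. Totals of 2136713 to 4058887 counts limit the precision of genes with few reads.

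Here, the filtered counts were fitted once over all 10832 genes with edgeR 4.0.16 in R 4.3.3 (TMM, estimateDisp, glmQLFit with robust=TRUE, glmQLFTest, treatment as the only factor, Benjamini-Hochberg over all genes), and only snoRNA genes are given. Alternatives were the likelihood ratio test with a robust dispersion, DESeq2 1.42.0, other scalings, the unfiltered table, blocks by replicate number, fits of the treatments compared, and leaving out each library. Leaving out FoEV replicates 4 and 5 together was chosen after seeing the data. Log2 levels used a prior count of 2. Exact permutation tests were two-sided (Python 3.11.15, scipy 1.17.1, numpy 2.4.6, pandas 2.3.3), and figures used matplotlib 3.10.9. The tests were tested on simulated data, in which each gene varied independently of the others. The shared rise and fall of snoRNA genes between libraries was not part of that simulation.

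Members and lists were chosen with earlier results of these data known. Gene types came from a RefSeq gene table of ARS-UCD2.0, in which all 85 members matched by identifier, and class symbols, for 56 members, from the study's own gene table, of which the top part was at hand. Genes named are the 8 members with the smallest p in each comparison, the SNORA73 family, the 4 members with the highest mean CPM in each class, SCARNA9, members lower in FoEV than in Co, and their containing genes. Sequences were not used here.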

Additional observations from a re-analysis of the deposited data

Results flagged for a closer look

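In the 27 members named by rule, each of the 3 treatments was examined for a library far from the other 4, which gave 81 groups of 5 libraries. In 3 of them the gap between the extreme library and its neighbour, divided by the range of the group, exceeded 0.71, the critical value of Dixon's test for 5 libraries. Chance sets apart about 1 group in 20.

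SNORD15A was at 49.2 CPM in FeEV replicate 5, and the next FeEV library was at 23.2 CPM. SNORA46 was at 21.5 CPM in Co replicate 1, against 9.63 CPM in the next Co library. SNORD11 was at 9.44 CPM in Co replicate 5, against 3.87 CPM in the next. All 3 libraries were among those with higher medians over the 85 snoRNA genes, at 0.55, 0.61 and 0.46 relative to the Co mean on the log2 scale.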

How the results depend on the processing

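In FoEV vs. Co, the members at an adjusted p under 0.05, 0 in the fit reported (34 at an unadjusted p under 0.05), were 21 with the likelihood ratio test and robust dispersion (all genes 2.87%, and 55 unadjusted, all genes 18.1%), 5 with DESeq2 (1.27%), 8 in the unfiltered table (0.679%), 4 with library totals in place of TMM (0.0739%), 3 with the 2 treatments alone (0.0462%) and 0 without FoEV replicates 4 and 5 (10 unadjusted, all genes 10.4%). In FoEV vs. FeEV, they were 6 with the likelihood ratio test (all genes 0.286%, and 60 unadjusted, all genes 11%), 1 with DESeq2 (0.0277%), 5 in the unfiltered table (0.0864%) and 0 without FoEV replicates 4 and 5 (5 unadjusted, all genes 6.98%). In FeEV vs. Co, the 2 at an unadjusted p under 0.05 were 1 with the likelihood ratio test (all genes 6.13%), 1 with DESeq2 (3.79%) and 4 in the unfiltered table (4.46%). Leaving out each library gave 21 to 43 unadjusted, 0 to 4 adjusted and medians of 0.66 to 1.13 in FoEV vs. Co, 15 to 51, 0 to 1 and 0.67 to 1.12 in FoEV vs. FeEV, and 1 to 4, 0 in each case and −0.20 to 0.14 in FeEV vs. Co. The cause was not tested.

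The libraries were not treated as paired by the replicate numbers of the titles. Correlations of same-numbered libraries were −0.29 to 0.44, and 7 of 15 were above 0.1. Those between the replicate 5 libraries were 0.42, 0.35 and 0.44, and 3 libraries correlated best with their own number in both other treatments. A pairing of some libraries was not tested. With a block by the replicate number of the titles, 5 members had an adjusted p under 0.05 in FoEV vs. Co (all genes 0.526%), and the number at an unadjusted p under 0.05 was 37 (17.6%). A block by the number in the descriptions gave 3 in FoEV vs. Co (0.111%), 1 in FoEV vs. FeEV (0.00923%) and, at an unadjusted p under 0.05, 1 in FeEV vs. Co (5.12%). With this block the median log2 fold change was 0.83 in FoEV vs. Co, against 0.85 in the fit reported. It was 0.61 in FoEV vs. FeEV, against 0.90, and 0.21 in FeEV vs. Co, against −0.05. FoEV replicates 4 and 5 carry the description numbers 6 and 7, shared only with Co replicate 5 and FeEV replicate 5. Libraries with the same description number had correlations of −0.20 to 0.44, and 3 of 10 were above 0.1. The part of these numbers in the results was not tested. None of the single members named had an adjusted p under 0.05 in the fit reported, so there was no call that another setting could reverse. Under another setting, 58 of their values passed an adjusted p under 0.05. Some log2 fold changes changed sign, among them that of LOC112441683 in FoEV vs. Co, from 0.61 to −0.28 without FoEV replicates 4 and 5.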
